A study of Danio rerio with 12 samples.

Results

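Zebrafish embryos mutant for ddx3xb were compared with control embryos at 2 hours post fertilization (hpf), the cleavage stage, by sequencing of poly(A)-selected RNA. The groups were ddx3xb-/- embryos at 2 hpf, with 2 samples, and ddx3xb+/+ embryos at 2 hpf, called wild type in the labels, also with 2 samples. They make up 4 of the 12 samples of a series that also holds both genotypes at 4 and 6 hpf. The labels give neither the mutation itself, nor the genotype of the mothers, nor the number of embryos or clutches in a sample. Each genotype and time is represented by 1 table of RPKM (reads scaled by gene length and library depth), with 1 value per gene for the group, so the values below carry no standard deviation, no n and no p-value. Genes were compared if their RPKM was at least 1 in either 2 hpf table, which held for 13763 of 33737 gene IDs. Of these, 12234 reached 1 in both tables, 893 in mutants only and 636 in controls only. Differences are mutant minus control on the scale log2(RPKM + 1), which understates those of low genes, and a gene is called higher or lower where the difference is at least 1. Gene symbols are spelled as in the name table used, many of them in the capitals of their human counterparts.

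ddx3xb encodes a DEAD-box RNA helicase of the DDX3 family, whose members unwind RNA and take part in the initiation of translation. A cleavage-stage zebrafish embryo divides rapidly on RNA and protein laid down in the egg, and its own genome is largely silent until the maternal-to-zygotic transition. Because the libraries were made from poly(A)-selected RNA of whole embryos, a lower amount of an RNA and a shorter poly(A) tail cannot be told apart in these values, nor can fewer cells of a type and less RNA per cell.

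The labels were checked first. The RPKM of ddx3xb (ENSDARG00000005774) was 0.70 in ddx3xb-/- embryos, against 325 in ddx3xb+/+ embryos, a difference of -7.59 and the largest of any gene compared. The mutant level was 0.215% of the control level. At 4 hpf it stood at 18.8 in mutants and 318 in controls, and at 6 hpf at 48.8 in mutants and 194 in controls. The paralog ddx3xa had 97.4 in mutants and 107 in controls at 2 hpf, a difference of -0.14. All 11 matched IDs of egg RNA markers, among them nanog, buc and DAZL, were at an RPKM of at least 1 in both groups, with a sum of 2776 in mutants and 3550 in controls. Of 9 IDs of genes that mark transcription of the embryo's own genome, 2 reached 1 in mutants (klf17 and krt8) and 1 in controls (krt8), with a sum of 7.93 in mutants and 2.53 in controls; the same 9 summed to 219 in mutants and 508 in controls at 4 hpf. Of 9 matched IDs of ovarian follicle markers, 1 was above 1. This was an ID of the steroid synthesis gene CYP11A1, at 46.3 in mutants and 72.1 in controls. The planned markers foxl2a and foxl2b matched no ID by name. An ID with the symbol FOXL2 was therefore not among the 9, and it stood at 1.81 in mutants and 1.97 in controls. All 3 IDs of adult red blood cell markers were below 0.1 in both groups.

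At 2 hpf, 706 genes (5.13% of those compared) were higher in mutant embryos by at least 1 log2 and 569 (4.13%) were lower. The remaining 12488 lay within 1. The median difference was 0.04, and the middle of the distribution, from the 25th to the 75th percentile, ran from -0.25 to 0.35. Levels in the 2 groups had a Pearson r of 0.948 across the 13763 genes, which are not independent replicates. Differences of at least 2 log2 were found for 66 genes that were higher and 90 that were lower, and those of at least 3 for 11 that were higher and 32 that were lower. The balance between higher and lower genes depended on the scaling of the tables: 602 genes were higher and 651 lower once a trimmed-mean factor was applied.

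**Figure D1:**
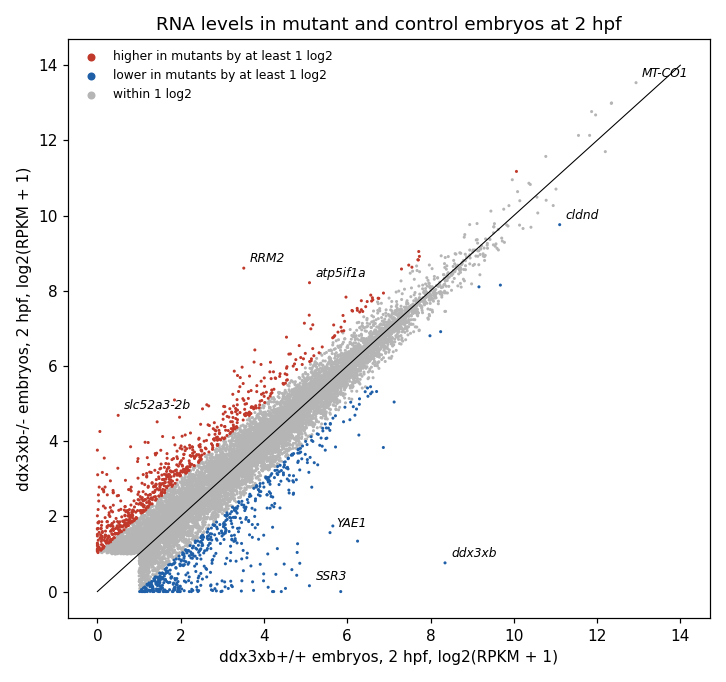
RNA levels at 2 hpf as log2(RPKM + 1), mutant embryos on the vertical axis and control embryos on the horizontal axis, 1 point per gene and the diagonal marking equal levels. The 706 genes above the diagonal by at least 1 and the 569 below it are coloured, and ddx3xb, at 325 in controls, lies farthest from the line.

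The share of genes past 1 log2 was greatest among low genes. Of 2255 genes with a mean RPKM of at most 2, 7.85% were higher and 7.89% lower. Of 903 genes with a mean RPKM above 100, 3.32% were higher and 0.66% lower. At those levels 30 genes were higher and 6 lower.

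The highest named genes in mutant embryos included enzymes, transport and respiratory genes and several genes known from differentiated tissues. RRM2 (ENSDARG00000078069), the small subunit of ribonucleotide reductase, which makes deoxynucleotides, stood at an RPKM of 388 in mutants and 10.4 in controls, a difference of 5.09. A second RRM2 ID went the other way (-1.53), and the sum of both IDs differed by -0.30. slc52a3-2b, of the riboflavin transporter family, had 24.8 in mutants and 0.41 in controls (4.19). GNB3, a G protein beta subunit, had 10.7 in mutants and 0.12 in controls (3.39). These 3 genes were near or below an RPKM of 10 in controls.

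pdx1, a homeobox gene known from the pancreas, had 33.2 in mutants and 2.61 in controls (3.24). atp5if1a, which restrains the ATP synthase of mitochondria, had 296 in mutants and 33.2 in controls (3.12). NDUFAF8, an assembly factor of respiratory complex I, had 50.7 in mutants and 9.78 in controls (2.26). Both of these mitochondrial genes remained above 1 log2 at 4 hpf, with differences of 2.33 and 2.24.

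Among the other genes of the top 25, 3 reached an RPKM above 100 in mutants. tmsb4x, which encodes the actin-binding thymosin beta 4, had 162 in mutants and 33.0 in controls (2.26). fthl28, a ferritin heavy chain-like gene, had 140 in mutants and 30.4 in controls (2.17). GPX4, a glutathione peroxidase that reduces lipid peroxides, had 108 in mutants and 22.3 in controls (2.23). The remaining 16 were alpk2, fam167aa, col28a1a, tmprss15, nkx1.2la, TNNT2, prr15la, CXCR3, DCXR, rab25b, znfl2a, s100t, gbp1, BCAR1, ATG4C and ANXA6, with mutant levels from 5.17 (BCAR1) to 61.6 (DCXR) and differences from 2.24 (ANXA6) to 2.79 (alpk2).

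The lowest named genes were headed, after ddx3xb, by genes nearly absent from the mutant table. SSR3, a subunit of the translocon-associated protein complex of the endoplasmic reticulum, stood at 0.11 in mutants and 33.1 in controls (-4.94). urahb, a gene of urate breakdown, had 0.35 in mutants and 26.6 in controls (-4.35). ZRANB1 (ENSDARG00000063190), a deubiquitinase, had 0.68 in mutants and 28.1 in controls (-4.11). YAE1, which takes part in maturation of a ribosome-associated factor in yeast, had 1.97 in mutants and 47.1 in controls (-4.02).

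SMIM13, a small membrane protein gene, had 2.35 in mutants and 49.4 in controls (-3.91), the highest control level among the lowest 25 after ddx3xb. Signalling genes were among this group. NCK1 (ENSDARG00000074262), an adaptor of receptor tyrosine kinases, had 0.08 in mutants and 16.2 in controls (-3.99). ADCY8, an adenylyl cyclase, had 0.66 in mutants and 21.4 in controls (-3.75), and prkacbb, a catalytic subunit of the cyclic AMP-dependent kinase, had 0.22 in mutants and 10.1 in controls (-3.18).

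SFRP1 (ENSDARG00000035521), a secreted inhibitor of Wnt signalling, had 0.10 in mutants and 8.46 in controls (-3.11). RBM22, a splicing factor, had 0.22 in mutants and 6.97 in controls (-2.71). The other 14 of the 25 were sc:d217, ANKRD33B, POGLUT3, TMC1, CCDC90B, KCNK5, capn2l, SPAG9, FNDC4, vwa5a, anxa3b, MCF2, FBXW8 and npdc1b, with control levels from 5.59 (MCF2) to 27.0 (POGLUT3) and differences from -4.21 (sc:d217) to -2.48 (npdc1b).

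Some genes were close to present in 1 group only. An RPKM of at least 5 in controls with less than 0.1 in mutants was found for 17 genes. Of these, NCK1, SFRP1, KCNK5, SPAG9 and capn2l have a gene name that is no clone placeholder. sc:d217, taken as named in the lists above, has a prefix of the kind that placeholders carry. sc:d217 (17.4 in controls) and capn2l, a calpain protease gene (6.82 in controls), were listed at 0 in mutants. The reverse, at least 5 in mutants with less than 0.1 in controls, was found for 6 genes. Those with a gene name that is no clone placeholder were nkx1.2la (5.62 in mutants, 0.09 in controls) and col28a1a (5.86 in mutants, 0.03 in controls).

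**Figure D2:**
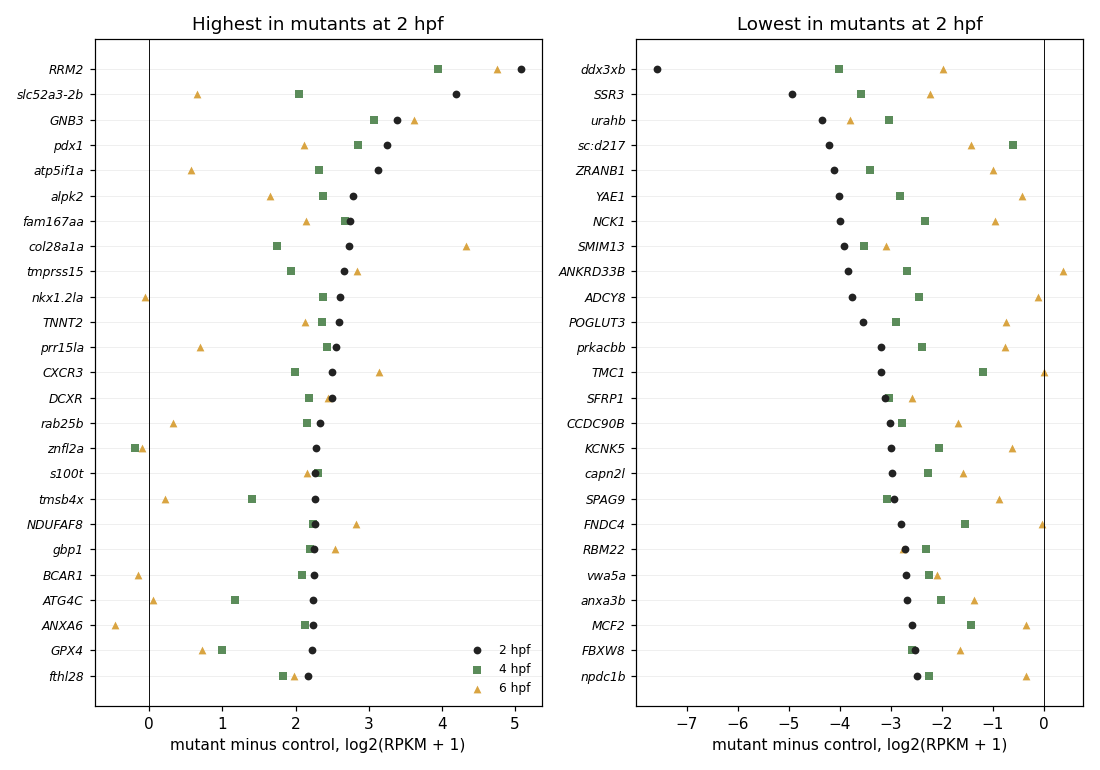
Mutant minus control difference in log2(RPKM + 1) for the 25 highest (left) and 25 lowest (right) named genes at 2 hpf, with the same genes at 4 and 6 hpf. At 4 hpf 23 of the 25 highest and 24 of the 25 lowest are past 1 log2 the same way, and at 6 hpf 14 and 12 are.

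The lists of ribosomal protein and respiratory chain genes held a larger share of higher calls than the background of 5.13%. They were chosen with earlier results of these data known, so the shares are a description only. Of 70 IDs of cytosolic ribosomal protein genes, 28 (40.0%) were higher, 1 was lower and 67 had a difference above 0, with a median of 0.90. RPLP0, a protein of the ribosomal stalk, had 136 in mutants and 35.1 in controls (1.92), and RPLP1, of the same stalk, had 126 in mutants and 33.9 in controls (1.86). RPS2 had 227 in mutants and 61.7 in controls (1.86). The 2 most abundant, RPS14 (831 in mutants, 733 in controls) and RPL29 (883 in mutants, 554 in controls), were within 1. RPL12 was the gene called lower, with 274 in mutants and 572 in controls (-1.06). The name pattern also took in rps6kal, a kinase gene, named here after its values were seen, at 26.4 in mutants and 40.5 in controls. Summed RPKM over the 70 IDs was 16666 in mutants and 10060 in controls, and at 4 hpf the list's median was 0.48 and at 6 hpf -0.34.

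All 13 mitochondrially encoded protein genes had a difference above 0, with a median of 0.60, but only mt-atp8 passed 1, with 76.3 in mutants and 35.7 in controls (1.07). MT-CO1, a core subunit of cytochrome c oxidase and the most abundant gene in both tables, had 11866 in mutants and 7834 in controls (0.60). MT-CYB, the mitochondrial cytochrome b, had 6546 in mutants and 3998 in controls (0.71). These 13 genes took 10.1% of the summed RPKM in mutants and 7.03% in controls. With trimmed-mean rescaling none of them passed 1.

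Of 82 IDs of nuclear genes for the respiratory chain and the ATP synthase, 18 (22.0%) were higher, 0 were lower and 76 had a difference above 0, with a median of 0.60 (0.37 at 4 hpf and -0.23 at 6 hpf). Beside atp5if1a and NDUFAF8, the largest differences were those of cox5aa, a cytochrome c oxidase subunit, with 7.83 in mutants and 1.27 in controls (1.96), and of ndufb3, a complex I subunit, with 13.1 in mutants and 3.66 in controls (1.60). The most abundant, ATP5F1A, had 206 in mutants and 171 in controls (0.26). Of 66 mitochondrial ribosomal protein genes, 11 (16.7%) were higher and 0 lower, with a median of 0.27. MRPS12 had 15.9 in mutants and 4.44 in controls (1.64), and mrpl20 had 5.97 in mutants and 1.33 in controls (1.58). The proteasome, which degrades ubiquitin-tagged proteins, had 6 of 44 IDs higher (13.6%) and 1 lower (2.27%), with a median of 0.28. Over all genes 5.13% were higher and 4.13% lower. PSMA4 had 28.1 in mutants and 8.07 in controls (1.68). The lower ID was 1 of 2 kept IDs with the symbol PSMD11, at 11.8 in mutants and 27.1 in controls (-1.13). Summed over both IDs, PSMD11 had 80.4 in mutants and 93.1 in controls (-0.21).

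**Figure D3:**
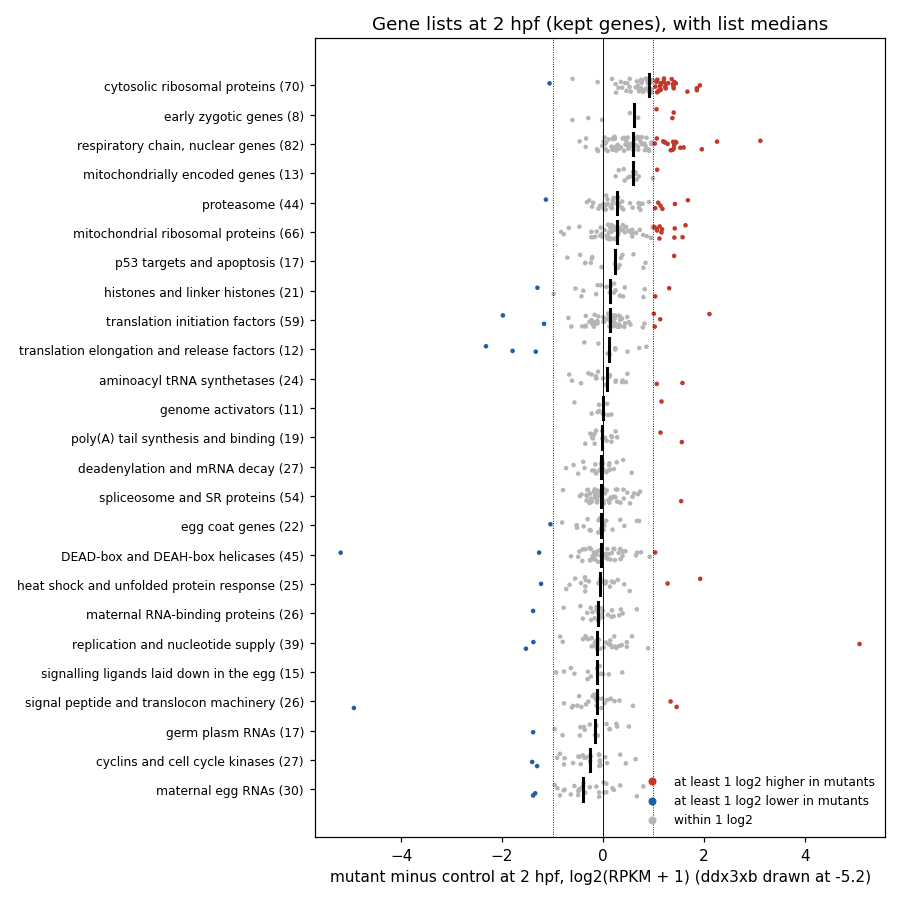
Mutant minus control difference at 2 hpf in log2(RPKM + 1) for the kept genes of each list, 1 point per gene ID, with the list median as a black bar and the number of kept IDs in brackets. Of the lists drawn, which are those with at least 5 kept IDs other than the marker lists, cytosolic ribosomal proteins have the highest median (0.90) and maternal egg RNAs the lowest (-0.39).

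Lists of translation, tRNA synthetase, helicase, splicing, RNA decay and poly(A) tail genes had medians from -0.05 to 0.15. The median of all genes was 0.04, and 5.13% of all genes were higher and 4.13% lower. Maternal RNA-binding proteins, taken up further on, had a median of -0.09. Of 59 IDs of translation initiation factors, 4 were higher and 2 lower, with a median of 0.15. The 2 subunits of the eIF3 complex past 1 log2 went opposite ways: EIF3K had 64.8 in mutants and 14.2 in controls (2.11), and EIF3E had 3.77 in mutants and 17.9 in controls (-1.98). EIF5, which triggers GTP hydrolysis on the start codon, had 33.9 in mutants and 77.5 in controls (-1.17).

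Of 12 IDs of elongation and release factors, 0 were higher and 3 lower, beside 5.13% and 4.13% of all genes: gspt1, a release factor gene (0.12 in mutants, 4.59 in controls, -2.32), eef1a1l3 (1.83 in mutants, 8.79 in controls, -1.79) and eef2a.1 (4.52 in mutants, 12.9 in controls, -1.33). gspt1 was kept only through its level in controls, and with an RPKM of at least 1 required in both groups 2 were lower. The most abundant of that list, eef1a1l1, had 581 in mutants and 750.5 in controls (-0.37). Of 45 IDs of DEAD-box and DEAH-box helicases, ddx3xb and DDX31 (5.32 in mutants, 14.2 in controls, -1.27) were lower and DHX37 (17.8 in mutants, 8.19 in controls, 1.04) was higher. Deadenylation and decay factors had 0 of 27 past 1 in either direction. Of the 54 genes on the spliceosome and SR protein list 1 was higher, PRPF3 with 28.2 in mutants and 8.98 in controls (1.55), and 0 were lower. The splicing factor RBM22 (-2.71), among the lowest genes above, was not on that list, whose lowest difference was -0.79. Of 19 poly(A) tail genes 2 were higher, pabpc1b (23.0 in mutants, 7.11 in controls, 1.56) and CSTF2 (40.7 in mutants, 17.9 in controls, 1.14), while the abundant pabpc1a had 380 in mutants and 426 in controls (-0.16). Of 24 tRNA synthetase genes 2 were higher, RARS2 and IARS1, and 0 lower.

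Of 30 maternal egg RNAs, 0 were higher, 2 (6.67%) were lower and 21 had a difference below 0, with a median of -0.39. Over all genes 4.13% were lower and 6362 of 13763 were below 0, with a median of 0.04, so the share called lower was near that of all genes. cldnd, a claudin gene of the egg, had 865 in mutants and 2197 in controls (-1.34), and DAZL, a germ cell RNA-binding protein, had 39.0 in mutants and 103 in controls (-1.38). At 4 hpf cldnd stood at 740 in mutants and 852 in controls (-0.20) and DAZL at 20.2 in mutants and 20.5 in controls (-0.02). The median of the 30 was 0.13 at 4 hpf and 1.47 at 6 hpf, where that of all genes was 0.08 and 0.35. At 2 hpf the activators of the zygotic genome nanog (862 in mutants, 908 in controls), pou5f3 (364 in mutants, 384 in controls) and sox19b (409 in mutants, 402 in controls) differed by at most 0.08 either way. Maternal RNA-binding proteins had 1 of 26 past 1, also DAZL. Germ plasm RNAs had 1 of 17 past 1, again DAZL, and a median of -0.16. Egg coat genes had 1 of 22 lower, zp3f.1 with 28.9 in mutants and 60.6 in controls (-1.04).

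Of 27 IDs of cyclins and cell cycle kinases, 2 (7.41%) were lower, near the 4.13% of all genes, and 22 had a difference below 0, with a median of -0.26. WEE1, an inhibitory kinase of CDK1, had 1.85 in mutants and 6.04 in controls (-1.31), and cdc25d, a phosphatase of the same pathway, had 0.09 in mutants and 1.89 in controls (-1.40). cdc25d was kept only through its level in controls. The abundant CCNA1 had 624 in mutants and 875 in controls (-0.49), and CCNB2 had 607 in mutants and 760 in controls (-0.33). Histones with their chaperones had 2 of 21 higher (9.52%, where 5.13% of all genes were higher) and 1 lower. With an RPKM of at least 5 required in either group 0 were higher, so nothing is read from that count. The lower one was h2ax1, with 37.3 in mutants and 93.4 in controls (-1.30). Of 39 replication and nucleotide supply IDs, 1 was higher and 2 lower, which were both RRM2 IDs and RRM2B. Of 15 signalling genes supplied by the egg, none passed 1.

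Genes known as early zygotic were low in both groups. Of 38 IDs, 8 reached an RPKM of 1, and 3 of these were higher in mutants, beside 5.13% of all genes: klf17, a Krüppel-like factor gene (2.96 in mutants, 0.50 in controls, 1.40), blf, a zinc-finger gene (6.85 in mutants, 2.02 in controls, 1.38), and krt8, a keratin gene (3.46 in mutants, 1.14 in controls, 1.06). klf17 was kept only through its level in mutants, and with an RPKM of at least 1 required in both groups 2 were higher, so nothing is read from the count. Among 11 genome activators 1 was past 1, SOX3, with 1.88 in mutants and 0.29 in controls (1.16). It too was kept only through mutants, and 0 were higher with at least 1 required in both groups. At 4 hpf krt8 had 3.84 in mutants and 27.7 in controls, and blf had 58.5 in mutants and 193 in controls. Genes were also grouped by their course in controls from 4 to 6 hpf, although all of them had first been kept by their 2 hpf values. Of 1233 genes that went up by at least 1 log2, 10.5% were higher in mutants at 2 hpf and 4.14% lower. Of 5790 that went down, 2.44% were higher and 4.68% lower, and of the other 6740, 6.45% were higher and 3.66% lower. A low gene could enter any class through the group where it is high, so these shares are a description.

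Of the other lists, the secretory machinery had SEC61G (7.28 in mutants, 2.27 in controls, 1.34) and SPCS1 (7.63 in mutants, 2.14 in controls, 1.46) higher and SSR3 lower among 26. SSR2 and SSR4, other subunits of the complex that holds SSR3, had differences of -0.61 and -0.47. The heat shock and unfolded protein list had HSPB1 (3.72 in mutants, 0.24 in controls, 1.93) and CCT4 (23.3 in mutants, 9.01 in controls, 1.28) higher and PDIA6 (29.2 in mutants, 69.8 in controls, -1.23) lower among 25. HSPB1 was kept only through its level in mutants. Of 17 p53 and apoptosis genes 1 was higher, casp23, with 50.3 in mutants and 18.3 in controls (1.41). Over all genes 5.13% were higher and 4.13% lower. The shares called higher in these 3 lists were 7.69%, 8.0% and 5.88%, near that of all genes, so nothing is read from the counts. HSPA8, a constitutive heat shock protein, had 831 in mutants and 734 in controls (0.18).

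The differences were set beside those of the 4 hpf tables, which come from other samples of the same genotypes. The labels do not say whether embryos of the 2 times shared clutches or parents. Of the 706 genes higher at 2 hpf, 673 were above 0 at 4 hpf and 369 (52.3%) were past 1 the same way, where 4.56% of all 13763 genes were higher at 4 hpf. Of the 569 lower genes, 552 were below 0 at 4 hpf and 311 (54.7%) were past 1 the same way, where 3.68% of all genes were lower. Past 1 the other way were 5 of the higher genes (tent5ba, HSPB1, blf, krt8 and ENSDARG00000085091) and 1 of the lower (ENSDARG00000083462). Pearson's r between the 2 differences across the kept genes was 0.747.

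The share past 1 at 4 hpf followed the size of the difference at 2 hpf. It was 39.1% of 516 genes that were higher by 1 to 1.5 log2, 84.7% of 124 at 1.5 to 2, 92.7% of 55 at 2 to 3 and 100% of 11 above 3. For lower genes it was 37.5% of 365, 77.2% of 114, 94.8% of 58 and 96.9% of 32. At 6 hpf, 262 of the 706 higher genes (37.1%) were past 1 the same way, against a background of 21.5%, and 109 of the 569 lower genes (19.2%), against 4.13%. In all, 187 genes were higher and 84 lower at each of the 3 times.

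**Figure D4:**
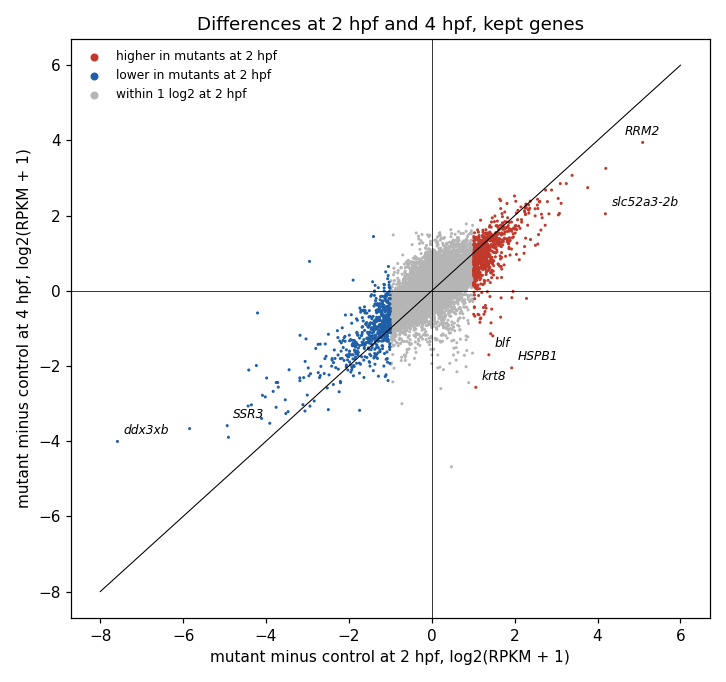
Mutant minus control difference in log2(RPKM + 1) at 2 hpf (horizontal) and at 4 hpf (vertical), 1 point per kept gene, coloured by the call at 2 hpf, with the diagonal marking equal differences. Of the coloured points, 673 of 706 higher and 552 of 569 lower genes stay on their side of 0, and HSPB1, blf and krt8 lie below it after a higher value at 2 hpf.

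Some differences were between IDs that share a symbol or belong to a pair of related genes, where reads could be divided between copies, so these are uncertain. RRM2 was the clearest. Its second ID (ENSDARG00000020711) had 283 in mutants and 818 in controls (-1.53), opposite to the first, and the sum of both was 671 in mutants and 829 in controls (-0.30). RRM2B, which encodes another small subunit of the same enzyme, had 9.81 in mutants and 27.1 in controls (-1.38). SOCS6, a suppressor of cytokine signalling, also had 1 ID higher (12.3 in mutants, 4.68 in controls) and 1 lower (15.2 in mutants, 34.4 in controls).

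Of 458 symbols on at least 2 kept IDs, 70 had an ID past 1, and in 53 of these the sum over IDs was within 1. KCNK5, ZRANB1 and SPAG9 had a second copy of a like or higher level in mutants: the other KCNK5 ID (ENSDARG00000012390) stood at 17.9 in mutants and 14.9 in controls, the other ZRANB1 ID (ENSDARG00000060257) at 22.7 in mutants and 15.9 in controls, and spag9a at 7.46 in mutants and 4.06 in controls. Of 12 kept copies or partners of the named genes, 10 were within 1, 2 were past 1 the other way (RRM2 and RRM2B) and 0 the same way. Below that threshold gpx4a (0.998), rab25a (0.81), atp5if1b (0.77), ddx3xa (-0.14) and the second IDs of NCK1 (-0.96) and FNDC4 (-0.96) differed the same way. The other KCNK5 and ZRANB1 IDs, spag9a and npdc1a (0.31) differed the opposite way. Summed over both IDs, NCK1 differed by -2.05 and FNDC4 by -2.16. Among 12 genes near ddx3xb in the order of the RefSeq table (GRCz12tu), 10 on one side and 2 on the other, aamp (18.5 in mutants, 6.56 in controls, 1.37) and zgc:65895 (7.09 in mutants, 0.97 in controls, 2.04) were higher and 0 were lower. Over all genes 5.13% were higher and 4.13% lower. zgc:65895 was kept only through its level in mutants, and nothing is read from so small a count. fbxl3b and kdm6al, the nearest of these 12 to ddx3xb on either side, had differences of -0.51 and 0.55.

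The spread between libraries could be read for a small set of genes. A low RPKM value is a whole number of reads of each of 2 libraries times the worth of a read, which allowed both libraries to be separated for 299 genes (2.17% of those compared), most of them low, with a median of 1.58 for the RPKM of the higher group. Taking the group value as a plain mean, the libraries held 62.9 and 58.1 M reads in mutants and 55.2 and 49.7 M in controls. Those depths rest on the shortest whole gene lengths that satisfied the values and could be off by a common factor, which would leave the ratios between libraries as they are. Within this set the median difference between libraries was 0.26 for mutants and 0.23 for controls, and the median size of the difference between genotypes was 0.52. Libraries of the same genotype were apart by at least 1 log2 in 21 genes (7.02%) for mutants and 11 (3.68%) for controls, and the genotypes in 48 (16.1%). All 299 genes had been kept for an RPKM of at least 1 in either group. The difference between genotypes was taken between means of 2 libraries, and that within a genotype between single libraries, so the measures are unlike. Genes kept only through the group where they are high widen the difference between genotypes, so these spreads are a description only.

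Both mutant libraries were above both control libraries in 139 of the 299 genes (46.5%) and below both in 72 (24.1%). Of 28 genes higher by at least 1 log2, 27 had both mutant libraries above, and of 20 lower, 19 had both below. These genes were picked by the mean of the same libraries, which largely fixes such counts, so they are given as a description only. MIA, a melanoma-inhibitory-activity gene, had 2.07 and 2.52 in mutant libraries, against 0.52 and 0.50 in control libraries. foxl2l, a forkhead gene, had 0.44 and 0.22 in mutant libraries, against 1.62 and 2.48 in control libraries. The 2 groups did not overlap for either gene. None of the 25 highest or lowest named genes was in the set, so the spread between their libraries is not known.

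**Figure D5:**
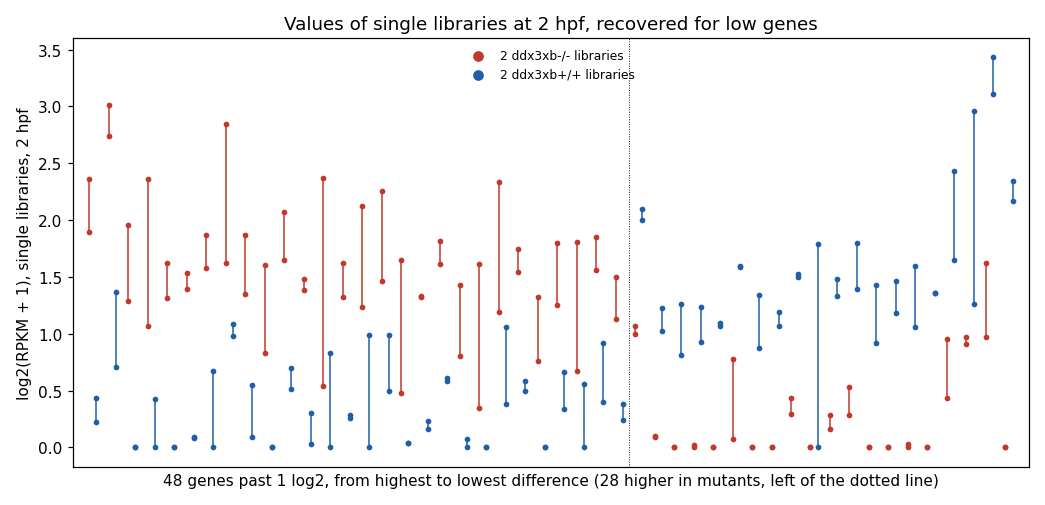
Values of single libraries at 2 hpf as log2(RPKM + 1), 2 mutant libraries left and 2 control libraries right within each of 48 low genes past 1 log2, in order of the difference, with a line joining libraries of a genotype. The genes were picked by the mean of the same libraries. The libraries of the 2 genotypes do not overlap for 27 of the 28 higher genes and 19 of the 20 lower genes.

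The least RPKM admitted was 1. Just inside it were DMXL2 (0.95 in mutants, 1.001 in controls) and FTH1 (1.001 in mutants, 0.63 in controls), and just outside were GRIA4 (0.999 in mutants, 0.78 in controls) and GALNT18 (0.10 in mutants, 0.999 in controls), all with differences under 1.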

How the data were processed

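Per the labels' protocols, embryo RNA was taken up in TRIzol, its poly(A) fraction was bound to Dynabeads, and libraries came from a stranded KAPA kit. The submitters' processing notes name HISAT2 2.0.5, SAMtools 1.9, Cutadapt 1.13, Trimmomatic 0.36 and the genome Zv9. How reads were assigned to genes, with which annotation and whether by strand, is not given in the sources used here. RPKM values, 1 per gene and group of 2 samples, were deposited by the authors in 6 tables.

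From these, log2(RPKM + 1) was computed (Python 3.11.15, pandas 2.3.3) for genes of RPKM at least 1 in either 2 hpf table. Alternatives were other pseudocounts, filters on low values, scalings, summing of IDs by symbol and a threshold of 2 log2. As the tables hold 1 value per group, no test was run. Reads of single libraries were recovered from low values, from step sizes found by inspection and refined by fit, a procedure tested on simulated data. The simulated data were built with those fitted step sizes, so that test could not check the step sizes themselves. Symbols matched 21939 of 33737 IDs.

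The genes named were the 25 highest and lowest with a usable symbol and RPKM of at least 5, up to 4 list members past 1 log2 each way, the most abundant genes, copies and partners, and marker genes. Members and lists were chosen with earlier results of these data known.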

Additional observations from a re-analysis of the deposited data

Results flagged for a closer look

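6 genes were past 1 log2 one way at 2 hpf and past 1 the other way at 4 hpf. Of these, 5 were higher at 2 hpf (0.71% of the higher genes, where 3.68% of all genes were lower at 4 hpf). The other 1 was lower at 2 hpf (0.18% of the lower genes, where 4.56% of all genes were higher at 4 hpf). Each group has 1 value, so the change between the times was not tested. HSPB1 differed by 1.93 at 2 hpf and by -2.05 at 4 hpf, where it had 23.9 in mutants and 102 in controls. krt8 differed by 1.06 at 2 hpf and by -2.57 at 4 hpf. blf differed by 1.38 at 2 hpf and by -1.70 at 4 hpf. tent5ba, of a family of noncanonical poly(A) polymerases, differed by 1.42 at 2 hpf (4.65 in mutants, 1.11 in controls) and by -1.14 at 4 hpf (29.0 in mutants, 65.2 in controls). ENSDARG00000085091 differed by 1.47 at 2 hpf and by -1.20 at 4 hpf. ENSDARG00000083462 differed by -1.41 at 2 hpf and by 1.44 at 4 hpf. Its 2 control libraries at 2 hpf stood at 6.79 and 1.40, from 27 and 5 reads. They were 1.70 log2 apart, more than the difference between genotypes. Between 2 and 6 hpf, 21 of the 706 higher genes (2.97%) and 27 of the 569 lower genes (4.75%) were past 1 the other way. At 6 hpf 4.13% of all genes were lower and 21.5% higher, so neither share was above that of all genes.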

How the results depend on the processing

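With a pseudocount of 0.1, 1262 genes were higher and 894 lower, and ddx3xb stood at -8.67 (-8.09 with 0.5). With an RPKM of at least 5 in either group, 450 were higher and 323 lower, and 1 cyclin or kinase was lower, as it was with at least 1 in both tables, where 309 genes were lower and ddx3xb had no value. At 2 log2, 66 were higher and 90 lower. Of the mitochondrially encoded genes 0 passed 1 with trimmed-mean rescaling and 2 with quantile normalization. Quantile normalization gave 617 higher and 635 lower genes and median-centring 635 and 611. In 198 other comparisons of these counts, medians and ddx3xb with an alternative, counts stayed within 1.5 times and medians within 0.26. Lists were run under all of these but the 2 log2 threshold, at which no cytosolic ribosomal protein gene would pass, since their largest difference was 1.92. The number of cytosolic ribosomal protein genes called higher ran from 23 to 29 and the list's median from 0.82 to 0.91. The number of nuclear respiratory genes ran from 16 to 21. The bound of 0.26 is about as large as some of the medians, so their ranges are given. The median ran from 0.40 to 0.60 for mitochondrially encoded genes and from 0.19 to 0.30 for mitochondrial ribosomal proteins. For cyclins and cell cycle kinases it ran from -0.343 to -0.255. No paired analysis was possible because the tables give 1 value per group, not per sample, and the libraries recovered for 299 low genes carry no replicate number. Leaving out a replicate was not run, and which differences of well expressed genes exceed the spread between libraries is not known.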
